A study of Mus musculus with 8 samples.

Results

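Interferon-stimulated genes are the transcripts that cells switch on when interferon binds its receptors, and 49 of them were followed here in the lungs of mice with ovalbumin (OVA)-induced allergic airway inflammation. The genes were listed by name as a functional module, a list drawn up with earlier results of these data known. Of the 49 genes, 46 had a probe matched by accession, and all 46 passed the filter on background, among 16574 named genes tested. No probe matched Mx1, Mx2 or Tgtp1, which were not analysed here. Oas3 was not well above background in Ctrl-F mouse 2 and Cap-F mouse 1, and the other 45 genes were well above background on all 8 arrays.

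Lung RNA came from 8 female BALB/c mice, 2 in each of 4 groups, and each mouse was measured on 1 single-color array. The mice were bought at 4 weeks of age, housed for 2 weeks and then fed for 70 days. The NT mice received standard feed and no OVA. The mice of Ctrl-F, Cap-F and ODNcap-F were sensitized by injection of OVA with aluminum oxide gel and inhaled OVA from Day 63 to Day 69. They differed in feed, which was the standard feed in Ctrl-F, feed with carbonate apatite particles lacking oligodeoxynucleotide (Cap) in Cap-F, and feed with the same kind of particle holding a class-B CpG oligodeoxynucleotide (ODNcap) in ODNcap-F. CpG oligodeoxynucleotides are short DNAs that toll-like receptor 9 recognizes, a receptor whose signal leads to interferon and cytokine production. The labels number the mice of each group 1 and 2, and values of a group are given in that order. The lung epithelial markers Sftpc and Scgb1a1 lay between 17.52 and 17.64 on the log2 scale in every mouse. Of all 7 epithelial markers listed, 3 were called lower and 0 higher in each allergen group, and their summed intensity was 665211 to 666120 in NT and 575455 to 599389 in the allergen mice.

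As background, type I and type III interferons signal through the kinases JAK1 and TYK2 to a transcription factor complex that binds the interferon-stimulated response element (ISRE). Interferon-gamma acts through another element, the gamma-activated site (GAS). The IFIT, OAS and ISG15 families answer mainly to type I and type III interferons, whereas the immunity-related GTPases, the guanylate-binding proteins and the immunoproteasome are strongly induced by interferon-gamma. In the lung these genes are best known for the defense of epithelium and macrophages against viruses and intracellular microbes.

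Promoter sequences are shown for 6 of the genes, because families parted in how far the ODNcap-F mice differed from each other. That difference was wider in the median for the ISG15, IFIT and OAS families than for the GTPase and antigen-processing genes. Windows come from RefSeq on GRCm38.p6, span the 250 bases before the transcription start and run 5′ to 3′ toward it. Capitals mark a match to the ISRE letters (GAAA, any 2 bases, GAAA) or the GAS letters (TTC, any 3 bases, GAA) on either strand, and matches may overlap.
Isg15, chr4:156200819-156201068, minus strand: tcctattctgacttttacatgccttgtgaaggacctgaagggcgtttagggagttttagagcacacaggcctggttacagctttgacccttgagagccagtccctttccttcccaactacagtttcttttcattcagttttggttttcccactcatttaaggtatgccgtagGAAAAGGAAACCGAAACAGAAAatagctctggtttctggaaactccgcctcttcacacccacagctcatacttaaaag
Ifit1, chr19:34640639-34640888, plus strand: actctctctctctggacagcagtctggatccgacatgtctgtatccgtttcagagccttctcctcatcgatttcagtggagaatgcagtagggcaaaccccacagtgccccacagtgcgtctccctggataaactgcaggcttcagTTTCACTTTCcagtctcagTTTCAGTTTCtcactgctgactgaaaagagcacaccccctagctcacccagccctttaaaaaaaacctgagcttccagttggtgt
Oas1a, chr5:120907526-120907775, minus strand: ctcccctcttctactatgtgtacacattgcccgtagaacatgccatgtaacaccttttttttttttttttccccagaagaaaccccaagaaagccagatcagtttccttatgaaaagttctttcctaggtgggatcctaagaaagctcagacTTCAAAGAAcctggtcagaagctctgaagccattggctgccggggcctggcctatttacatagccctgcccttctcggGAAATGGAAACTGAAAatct
Igtp, chr11:58199306-58199555, plus strand: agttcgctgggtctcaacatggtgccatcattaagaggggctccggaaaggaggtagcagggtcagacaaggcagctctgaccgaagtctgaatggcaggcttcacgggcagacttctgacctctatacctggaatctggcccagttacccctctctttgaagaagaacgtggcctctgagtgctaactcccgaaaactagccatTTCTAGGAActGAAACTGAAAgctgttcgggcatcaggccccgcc
Gbp5, chr3:142496684-142496933, plus strand: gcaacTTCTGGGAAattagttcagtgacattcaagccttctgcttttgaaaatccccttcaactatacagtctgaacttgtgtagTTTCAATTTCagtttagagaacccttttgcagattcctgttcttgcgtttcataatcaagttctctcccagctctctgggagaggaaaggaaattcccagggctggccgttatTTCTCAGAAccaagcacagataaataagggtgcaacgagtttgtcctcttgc
Psmb8, chr17:34197945-34198194, plus strand: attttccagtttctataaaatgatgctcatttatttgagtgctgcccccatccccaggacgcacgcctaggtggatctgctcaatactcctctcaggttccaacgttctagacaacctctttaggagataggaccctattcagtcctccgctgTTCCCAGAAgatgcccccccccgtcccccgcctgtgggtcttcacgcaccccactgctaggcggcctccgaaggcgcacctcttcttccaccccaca

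A window was at hand for 38 of the 46 genes. The ISRE letters stood in the windows of 16 of the 38 (42.1%) beside 3.46% of all 27025 genes of the table and 2.98% of its 32851 windows. The GAS letters stood in 12 of the 38 (31.6%), beside 8.13% of all genes and 7.02% of windows. All 7 GTPase genes with a window held the ISRE letters, and 4 of the 7 held the GAS letters. In Igtp the ISRE match began 34 bases before the start and the GAS match 45 bases before it. None of the 3 antigen-processing genes held the ISRE letters, and Psmb8 held the GAS letters. Of the sensors and RNA enzymes, 0 of 4 held the ISRE letters. Among genes with a window, 2 of 3 IFIT genes, 2 of 4 OAS genes and 1 of 3 genes of the ISG15 system held them. The GAS letters stood in 1, 1 and 0 of these. The start sites of Tap1 and Psmb9 lay 226 bases apart on opposite strands, so their windows share sequence. Genes without a window were Oas2, Usp18, Dhx58, Zbp1, Rtp4, Ifi27, Parp14 and Iigp1. A match describes letters in a window and not a site in use.

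Against NT, genes of the module passed in both directions, and by limma a smaller share passed than of all named genes. Compared with NT, 21 of the 46 genes (45.7%) passed the test in Ctrl-F, 12 higher and 9 lower, against 65% of all named genes (28.1% higher and 36.9% lower). In Cap-F 21 genes passed, 12 higher and 9 lower, against 60.6% of named genes (26% higher and 34.6% lower). In ODNcap-F 21 genes passed, 14 higher and 7 lower, against 62.2% of named genes (27.2% higher and 35% lower). A gene passed at an adjusted p below 0.05 in the limma fit of all 8 arrays, corrected over all kept probes. By the local-pooled-error test, which pools the spread of probes of like intensity, 30, 28 and 31 genes passed in the same order, beside 56.9%, 51.7% and 51.1% of named genes. At an unadjusted p below 0.05 in the limma fit the counts were 24, 24 and 25, beside 69.1%, 65.4% and 66.7%. By limma 11 genes (23.9%) were higher in all 3 comparisons, 7 (15.2%) were lower in all 3 and 21 (45.7%) passed in none. The shares of named genes were 23.3%, 29.8% and 27.7%. The 3 comparisons share the NT mice and are not independent of each other.

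**Figure D1:**
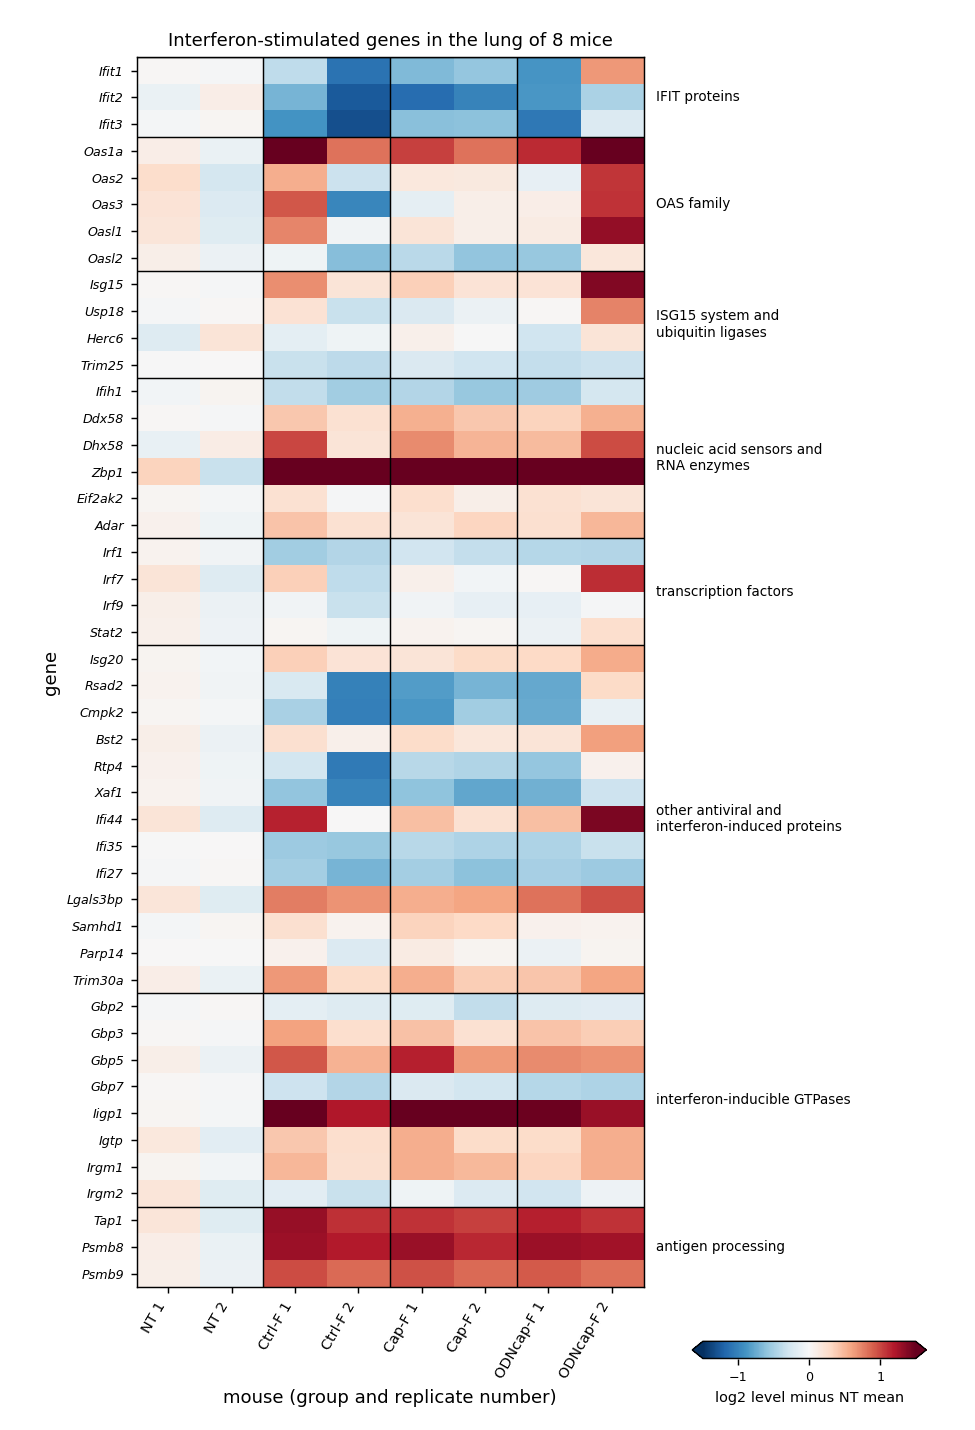
Level of each of the 46 interferon-stimulated genes (rows, by role) in each of the 8 mice (columns), as the normalized log2 value minus the NT mean of that gene, with colors capped at 1.5. Zbp1, Iigp1, Oas1a, Tap1, Psmb8 and Psmb9 are red in the 6 allergen mice, the IFIT genes are blue in most of them, and ODNcap-F mouse 2 differs from ODNcap-F mouse 1 in the upper rows.

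The median log2 fold change of the 46 genes against NT was 0.051 for Ctrl-F, 0.11 for Cap-F and 0.37 for ODNcap-F, beside -0.094, -0.099 and -0.090 for all named genes. The third value rested on ODNcap-F mouse 2, because it was 0.045 without that mouse. Without Ctrl-F mouse 1 the median in Ctrl-F was -0.067, and without Ctrl-F mouse 2 it was 0.24. Over 2-fold changes that passed were found for 5 genes higher and 1 lower in Ctrl-F (11.3% and 12% of named genes), 4 higher and 1 lower in Cap-F (10.7% and 10.2%), and 5 higher and 0 lower in ODNcap-F (10.9% and 10.2%). In 18 genes (39.1%) all 6 allergen mice lay above both NT mice, and in 11 genes (23.9%) all 6 lay below, beside 31.3% and 41.7% of named genes. Group by group, both mice lay above both NT mice in 18 genes and below in 14 for Ctrl-F (37.5% and 48.9% of named genes), in 22 and 16 for Cap-F (36.1% and 48.6%), and in 21 and 11 for ODNcap-F (36.3% and 47.6%). With either NT mouse left out, fewer genes passed in each comparison, as in Cap-F without Cap-F mouse 2. The share of named genes that passed in those fits was not computed.

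Cell markers moved with the same comparisons. Over the markers tested, all 5 endothelial markers fell and all 5 eosinophil markers and all 4 B cell markers rose in each allergen group. Of 6 T cell markers listed 5 were tested, and 4 of these rose in each group. The shares of named genes that passed were 65%, 60.6% and 62.2% for the 3 groups. The summed normalized intensity of the eosinophil markers ranged from 1319 to 1400 in NT and from 4602 to 6035 in the allergen mice. For the B cell markers the sums were 7155 to 9973 in NT and 29145 to 40984 in the allergen mice, and for the endothelial markers 66121 to 67128 and 25402 to 31090. The monocyte and macrophage markers summed to 99167 to 100876 in NT and 102745 to 115186 in the allergen mice, a sum that weighs bright markers most. Of the 7, 5 rose and 2 fell in Ctrl-F and Cap-F, and 5 rose and 1 fell in ODNcap-F. Their median log2 fold change against NT was 1.25, 1.33 and 1.14 for the 3 groups. Single markers ranged from -3.98 to 2.22, -4.15 to 2.04 and -3.74 to 2.21. Of 5 NK cell markers 3 fell in Ctrl-F, 2 fell and 1 rose in Cap-F, and 2 fell in ODNcap-F. Of 4 neutrophil markers tested (5 listed) 2 fell and 1 rose in Ctrl-F and ODNcap-F, and 1 fell and 1 rose in Cap-F. Of 5 conventional dendritic cell markers 2 rose in each group and 1, 2 and 1 fell, and of 6 plasmacytoid dendritic cell markers 3 rose and 2 fell in each group. The summed intensity of the 5 cardiomyocyte markers ranged from 2503 to 24055 over the 8 mice, and 4 of them fell in Ctrl-F and 0 in the other groups. None of the defining markers was at 0. In RNA of whole lung, fewer cells of a type and less RNA per cell cannot be told apart. The part of these markers in the changes described here was not tested.

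The IFIT proteins, which bind foreign RNA and block its translation, had the lowest fold change of the module in each comparison, Ifit3 in Ctrl-F and Ifit2 in Cap-F and ODNcap-F. Ifit2 had log2 levels of 7.93 and 8.13 with NT, 7.33 and 6.77 with Ctrl-F, 6.88 and 7.03 with Cap-F, then 7.15 and 7.55 with ODNcap-F. The 6 allergen mice all lay below both NT mice. Its log2 fold change against NT was -0.98 ± 0.22 with Ctrl-F, -1.07 ± 0.22 with Cap-F and -0.68 ± 0.22 with ODNcap-F (SE), at adjusted p values of 0.0105, 0.00805 and 0.0401. The call in ODNcap-F was lost without ODNcap-F mouse 1 (-0.48, adjusted p = 0.176), without NT mouse 1 (-0.78, adjusted p = 0.0806) and without NT mouse 2 (-0.58, adjusted p = 0.162). Without a filter on background it was lost as well (adjusted p = 0.0825). The call in Ctrl-F was lost without NT mouse 2 (-0.88, adjusted p = 0.0582).

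Ifit3 stood at 11.27 and 11.32 with NT, 10.40 and 9.98 with Ctrl-F, 10.67 and 10.69 with Cap-F, then 10.23 and 11.09 with ODNcap-F. All allergen mice were below NT, and ODNcap-F mouse 2 came closest to it. Only the difference in Ctrl-F passed, with -1.11 ± 0.29 (SE, adjusted p = 0.0167), beside -0.62 in Cap-F (adjusted p = 0.112) and -0.64 in ODNcap-F (adjusted p = 0.102). That call was lost without Ctrl-F mouse 2 (-0.90, adjusted p = 0.084) and without either NT mouse (adjusted p = 0.0617 and 0.0705), whereas the difference in ODNcap-F passed without ODNcap-F mouse 2 (-1.07, adjusted p = 0.00826), where 1 mouse is left and is assumed to vary like the other groups. Ifit1 was at 8.39 and 8.36 with NT, 7.99 and 7.27 with Ctrl-F, 7.72 and 7.80 with Cap-F, then 7.49 and 9.03 with ODNcap-F. ODNcap-F mouse 2 held the highest level of all 8 mice and the other 5 allergen mice lay below NT. No Ifit1 difference against NT passed (adjusted p = 0.236, 0.324 and 0.847).

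The OAS enzymes make the oligoadenylates that switch on RNase L. Oas1a was the only one of 5 to pass, beside 65%, 60.6% and 62.2% of named genes in the 3 comparisons. Its levels were 11.05 and 10.86 with NT, 12.44 and 11.77 with Ctrl-F, 11.98 and 11.76 with Cap-F, then 12.07 and 12.44 with ODNcap-F, with every allergen mouse above both NT mice. The log2 fold change was 1.15 ± 0.25 with Ctrl-F, 0.92 ± 0.25 with Cap-F and 1.30 ± 0.25 with ODNcap-F (SE), at adjusted p values of 0.00832, 0.0211 and 0.00536, which corresponds to 2.22-fold, 1.89-fold and 2.47-fold. The call in Cap-F was lost without NT mouse 1 (1.01, adjusted p = 0.057), without NT mouse 2 (0.83, adjusted p = 0.0981) and without Cap-F mouse 1 (0.81, adjusted p = 0.0954). Oas1a has close paralogs in the mouse, so its probe may read more than this gene.

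The other OAS genes varied widely between mice of a group, and none passed against NT. Oas2 was at 10.09 and 9.57 with NT, 10.38 and 9.51 with Ctrl-F, 9.99 and 9.98 with Cap-F, then 9.70 and 10.90 with ODNcap-F. Oasl1 was at 9.33 and 8.97 with NT, 9.88 and 9.10 with Ctrl-F, 9.34 and 9.24 with Cap-F, then 9.28 and 10.47 with ODNcap-F. In both genes ODNcap-F mouse 2 held the highest value and Ctrl-F mouse 1 the next. Oas3, near the background, was at 4.55 and 4.14 with NT, 5.28 and 3.36 with Ctrl-F, 4.21 and 4.44 with Cap-F, then 4.44 and 5.42 with ODNcap-F. Oasl2, an OAS-like protein, stood at 10.97 and 10.78 with NT, 10.81 and 10.23 with Ctrl-F, 10.47 and 10.28 with Cap-F, then 10.31 and 11.04 with ODNcap-F, and its log2 differences against NT were -0.35, -0.49 and -0.20 (adjusted p = 0.324, 0.19 and 0.581). The Oasl2 value in ODNcap-F turned to 0.17 without ODNcap-F mouse 1.

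The ISG15 system attaches the ubiquitin-like ISG15 to proteins, with HERC6 as a ligase and USP18 as the enzyme that removes it. Isg15 was at 11.55 and 11.53 with NT, 12.24 and 11.73 with Ctrl-F, 11.90 and 11.75 with Cap-F, then 11.75 and 12.93 with ODNcap-F. All 6 allergen mice lay above NT, the lowest by 0.18, and ODNcap-F mouse 2 lay 0.70 above the next mouse. The log2 differences against NT were 0.44 ± 0.38, 0.28 ± 0.38 and 0.80 ± 0.38 (SE), and none passed (adjusted p = 0.351, 0.551 and 0.119). Without ODNcap-F mouse 1 the remaining mouse gave 1.39, adjusted p = 0.00677, with the spread taken from the other groups. Usp18 did not pass either, with -0.06, -0.15 and 0.38 (adjusted p = 0.863, 0.657 and 0.275), nor did Herc6, with -0.11, 0.04 and -0.05.

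Trim25, a ubiquitin ligase that acts on RIG-I, passed in each comparison by its brightest probe. The levels were 14.37 and 14.39 with NT, 14.05 and 13.99 with Ctrl-F, 14.16 and 14.08 with Cap-F, then 14.02 and 14.06 with ODNcap-F, with all allergen mice below both NT mice. Differences were -0.36 ± 0.07 with Ctrl-F, -0.26 ± 0.07 with Cap-F and -0.34 ± 0.07 with ODNcap-F (SE), at adjusted p values of 0.00452, 0.017 and 0.00613. A dimmer Trim25 probe went the other way, with 0.91 in Ctrl-F and 0.76 in ODNcap-F (adjusted p = 0.0105 and 0.0212), so the direction of Trim25 depends on the probe. With 75th percentile scaling the brightest probe no longer passed, and in Cap-F it was lost without either NT mouse (adjusted p = 0.0623 and 0.074) and without Cap-F mouse 2 (adjusted p = 0.0905).

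Among the sensors and RNA enzymes, Zbp1 rose the most of all 46 genes. ZBP1 recognizes nucleic acids in the Z conformation and can start necroptosis. Zbp1 levels were 7.94 and 7.28 with NT, 10.76 and 10.48 with Ctrl-F, 10.12 and 9.98 with Cap-F, then 10.65 and 10.98 with ODNcap-F. The lowest allergen mouse lay 2.03 log2 units above the higher NT mouse. The log2 fold change was 3.01 ± 0.24 with Ctrl-F, 2.44 ± 0.24 with Cap-F and 3.21 ± 0.24 with ODNcap-F (SE), at adjusted p values of 0.00019, 0.000471 and 0.000178, or 8.08-fold, 5.42-fold and 9.24-fold. The second Zbp1 probe gave 1.77 in Ctrl-F and 1.92 in ODNcap-F (adjusted p = 0.00123 and 0.000962).

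The RIG-I-like receptors, which detect RNA in the cytosol, parted in direction. Ddx58 (RIG-I) was at 11.19 and 11.15 with NT, 11.57 and 11.40 with Ctrl-F, 11.71 and 11.58 with Cap-F, then 11.50 and 11.71 with ODNcap-F, above NT in all 6 allergen mice. It rose by 0.32 ± 0.11 with Ctrl-F, 0.47 ± 0.11 with Cap-F and 0.43 ± 0.11 with ODNcap-F (SE), at adjusted p values of 0.0401, 0.0106 and 0.014. Ifih1 (MDA5) fell, with -0.45 ± 0.12 with Ctrl-F, -0.51 ± 0.12 with Cap-F and -0.40 ± 0.12 with ODNcap-F (SE), at adjusted p values of 0.0187, 0.013 and 0.0289, and all 6 allergen mice lay below NT. Dhx58 (LGP2) had differences of 0.60, 0.61 and 0.73 that did not pass (adjusted p = 0.126, 0.125 and 0.077). The Ddx58 calls were sensitive to single mice: without NT mouse 2 the adjusted p was 0.139 for Ctrl-F, 0.0539 for Cap-F and 0.0653 for ODNcap-F, and without NT mouse 1 it was 0.105 in Ctrl-F and 0.0513 in ODNcap-F. Calls were also lost without Ctrl-F mouse 1 (adjusted p = 0.179), Cap-F mouse 1 (adjusted p = 0.0594) and ODNcap-F mouse 2 (adjusted p = 0.0623). With the mean of its probes no Ddx58 call remained (adjusted p = 0.185, 0.0588 and 0.0517). Adar, which edits adenosines in RNA, passed in ODNcap-F only (0.37 ± 0.12, SE, adjusted p = 0.04), beside 0.33 in Ctrl-F and 0.26 in Cap-F, and a dimmer probe gave 0.25 in Ctrl-F and 0.37 in ODNcap-F (adjusted p = 0.157 and 0.0564). Eif2ak2 (PKR), the kinase that halts translation, did not pass, with 0.11, 0.17 and 0.21.

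**Figure D2:**
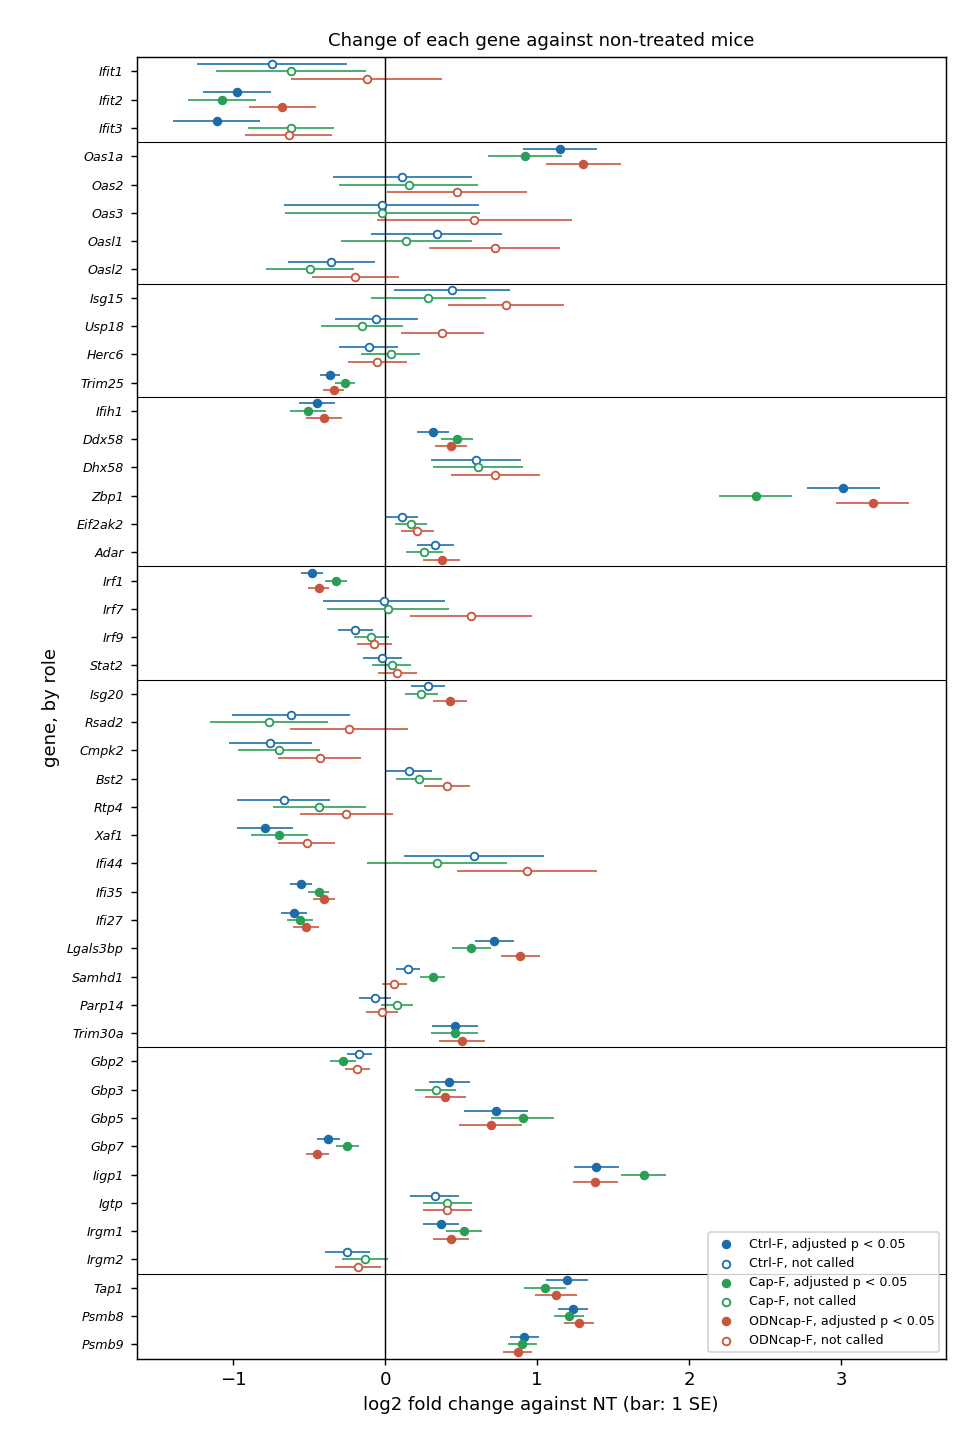
Log2 fold change of each gene against NT (horizontal axis) for the Ctrl-F, Cap-F and ODNcap-F mice, with 1 SE from the limma fit as bars and filled points where the adjusted p was below 0.05. Zbp1 lies farthest to the right at 2.44 to 3.21, the IFIT genes lie to the left of 0, and the open points with long bars are mostly genes that differed between the mice of a group.

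Of the 4 transcription factors, Irf1 alone passed (25% in each comparison), beside 65%, 60.6% and 62.2% of named genes. IRF1 is induced by interferon-gamma and turns on antigen-processing genes. Irf1 levels were 13.96 and 13.86 with NT, 13.39 and 13.47 with Ctrl-F, 13.62 and 13.55 with Cap-F, then 13.47 and 13.46 with ODNcap-F, and each allergen mouse lay below both NT mice. The log2 fold change was -0.48 ± 0.07 with Ctrl-F, -0.32 ± 0.07 with Cap-F and -0.44 ± 0.07 with ODNcap-F (SE), at adjusted p values of 0.002, 0.0107 and 0.00304. A dimmer Irf1 probe gave -0.15 in Ctrl-F and -0.28 in ODNcap-F (adjusted p = 0.305 and 0.0833). In Cap-F the call was lost without NT mouse 1 (-0.27, adjusted p = 0.0602) and without Cap-F mouse 2 (-0.29, adjusted p = 0.0598), and with 75th percentile scaling (-0.20, adjusted p = 0.0715).

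Irf7, the factor that amplifies interferon-alpha production, was at 12.58 and 12.19 with NT, 12.75 and 12.01 with Ctrl-F, 12.46 and 12.35 with Cap-F, then 12.41 and 13.50 with ODNcap-F. ODNcap-F mouse 2 stood 0.75 above the next mouse, and the other values of allergen and NT mice overlapped. The differences against NT were -0.01, 0.02 and 0.57 (adjusted p = 0.988, 0.972 and 0.268). Irf9 and Stat2, whose proteins belong to the ISRE-binding complex, did not pass. Irf9 was at 12.08 and 11.91 with NT, 11.94 and 11.66 with Ctrl-F, 11.94 and 11.87 with Cap-F, then 11.87 and 11.97 with ODNcap-F, with differences of -0.20, -0.09 and -0.07. The Irf9 value in ODNcap-F turned to 0.01 without NT mouse 1. Stat2 gave -0.02, 0.04 and 0.08.

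The 13 other antiviral and interferon-induced genes were split. Lgals3bp, a secreted glycoprotein that binds galectins, was at 12.78 and 12.43 with NT, 13.37 and 13.28 with Ctrl-F, 13.14 and 13.20 with Cap-F, then 13.42 and 13.57 with ODNcap-F, with the 6 allergen mice above both NT mice. It rose by 0.72 ± 0.13 with Ctrl-F, 0.57 ± 0.13 with Cap-F and 0.89 ± 0.13 with ODNcap-F (SE), at adjusted p values of 0.00415, 0.0116 and 0.00188, and the call in Cap-F was lost without Cap-F mouse 2 (0.54, adjusted p = 0.0537). Trim30a, a restraint on toll-like receptor signals, rose by 0.46, 0.46 and 0.50 (adjusted p = 0.0394, 0.0442 and 0.0304). Isg20, an exonuclease of RNA, passed by its brightest probe in ODNcap-F, with 0.43 ± 0.11 (SE, adjusted p = 0.018), and gave 0.28 and 0.24 in Ctrl-F and Cap-F. Its second probe passed in both groups read for it, with 0.57 in Ctrl-F and 0.72 in ODNcap-F (adjusted p = 0.00543 and 0.00229), so where Isg20 passed depends on the probe.

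Lower values were found for Ifi35, Ifi27 and Xaf1. Ifi35, a binding partner of NMI, was at 13.57 and 13.57 with NT, 13.02 and 13.00 with Ctrl-F, 13.15 and 13.11 with Cap-F, then 13.10 and 13.23 with ODNcap-F, and the highest allergen mouse lay 0.34 below the lower NT mouse. It fell in every comparison, with -0.55 ± 0.07 with Ctrl-F, -0.44 ± 0.07 with Cap-F and -0.40 ± 0.07 with ODNcap-F (SE), at adjusted p values of 0.00108, 0.00312 and 0.00409. Both Ifi35 probes gave that direction. Ifi27, a membrane protein of mitochondria and the nuclear envelope, gave -0.60, -0.56 and -0.52 (adjusted p = 0.00177, 0.00268 and 0.00329), and its dimmer probe -0.24 in Ctrl-F and -0.18 in ODNcap-F (adjusted p = 0.0193 and 0.0509). Xaf1, a partner of an apoptosis inhibitor, fell in Ctrl-F and Cap-F, with -0.79 and -0.70 (adjusted p = 0.0119 and 0.021), and gave -0.52 in ODNcap-F (adjusted p = 0.0538). A dimmer Xaf1 probe passed in both groups read for it, with -0.71 in Ctrl-F and -0.90 in ODNcap-F (adjusted p = 0.0239 and 0.0105).

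No difference against NT passed for Rsad2 (viperin, which blocks viral replication), Cmpk2, Bst2 (tetherin, which holds budding viruses at the cell surface), Rtp4, Ifi44 or Parp14. Rsad2 gave -0.62, -0.77 and -0.24, Cmpk2 -0.76, -0.70 and -0.43 and Rtp4 -0.67, -0.43 and -0.26. Bst2 gave 0.16, 0.22 and 0.41, and its lowest adjusted p was 0.0617 in ODNcap-F. Ifi44 gave 0.58, 0.34 and 0.93, with a range of 7.49 to 8.64 within Ctrl-F and 7.92 to 8.89 within ODNcap-F. Samhd1, which degrades the nucleotides needed for DNA synthesis, rose in Cap-F by 0.31 (adjusted p = 0.0194) and gave 0.15 and 0.06 in the other groups. This was the brightest of 3 Samhd1 probes, and the other probes gave 0.54 and 0.59 in Ctrl-F (adjusted p = 0.00669 and 0.00346) and 0.46 and 0.48 in ODNcap-F (adjusted p = 0.0128 and 0.00826), so the Samhd1 calls depend on the probe.

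The interferon-inducible GTPases attack the vacuoles of intracellular microbes. Of 8 tested, 4 rose and 1 fell in Ctrl-F, 3 rose and 2 fell in Cap-F, and 4 rose and 1 fell in ODNcap-F, which is 62.5% in each, beside 65%, 60.6% and 62.2% of named genes. Iigp1 was at 11.10 and 11.04 with NT, 12.65 and 12.27 with Ctrl-F, 12.88 and 12.66 with Cap-F, then 12.54 and 12.37 with ODNcap-F, at least 1.17 above NT in each allergen mouse. It rose by 1.39 ± 0.15 with Ctrl-F, 1.70 ± 0.15 with Cap-F and 1.38 ± 0.15 with ODNcap-F (SE), at adjusted p values of 0.000557, 0.000324 and 0.000622, or 2.62-fold, 3.25-fold and 2.61-fold. Gbp5, a promoter of inflammasome assembly, rose by 0.73, 0.90 and 0.69 (adjusted p = 0.0248, 0.0124 and 0.0305), and Irgm1 by 0.37, 0.52 and 0.44 (adjusted p = 0.035, 0.0113 and 0.0205). Gbp3 rose in Ctrl-F (0.42, adjusted p = 0.0357) and ODNcap-F (0.40, adjusted p = 0.0455) and gave 0.33 in Cap-F (adjusted p = 0.0801).

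Gbp7 moved the other way. Its levels were 9.15 and 9.10 with NT, 8.82 and 8.68 with Ctrl-F, 8.91 and 8.85 with Cap-F, then 8.69 and 8.66 with ODNcap-F, and all allergen mice were below both NT mice. It fell in each group, with -0.37 ± 0.07 with Ctrl-F, -0.25 ± 0.07 with Cap-F and -0.45 ± 0.07 with ODNcap-F (SE), at adjusted p values of 0.00642, 0.0318 and 0.00331. In Cap-F the call was lost when any mouse of NT or Cap-F was left out, with adjusted p values from 0.0764 to 0.134, and with normexp correction (adjusted p = 0.0578) or the local-pooled-error test (adjusted p = 0.236). Gbp2 fell in Cap-F (-0.28, adjusted p = 0.0316) and gave -0.17 and -0.18 in Ctrl-F and ODNcap-F. Igtp and Irgm2, whose promoters hold the same pair of motifs, did not pass. Igtp gave 0.33, 0.41 and 0.41 and Irgm2 -0.25, -0.13 and -0.18. The Gbp genes are similar in sequence, so a probe of 1 gene may read a neighbor.

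All 3 antigen-processing genes rose in each comparison, beside 28.1%, 26% and 27.2% of named genes. PSMB8 and PSMB9 replace catalytic subunits of the proteasome to form the immunoproteasome, and TAP1 carries its peptides into the endoplasmic reticulum for MHC class I. Psmb8 was at 11.89 and 11.69 with NT, 13.07 and 12.98 with Ctrl-F, 13.08 and 12.92 with Cap-F, then 13.07 and 13.05 with ODNcap-F. The 6 allergen mice lay within 0.16 of each other and at least 1.03 above the NT mice. The log2 fold change was 1.24 ± 0.10 with Ctrl-F, 1.21 ± 0.10 with Cap-F and 1.27 ± 0.10 with ODNcap-F (SE), at adjusted p values of 0.000188, 0.000243 and 0.000197. Psmb9 was at 12.59 and 12.42 with NT, 13.48 and 13.36 with Ctrl-F, 13.46 and 13.36 with Cap-F, then 13.43 and 13.33 with ODNcap-F, with differences of 0.91 ± 0.10 with Ctrl-F, 0.90 ± 0.10 with Cap-F and 0.87 ± 0.10 with ODNcap-F (SE), at adjusted p values of 0.000483, 0.0006 and 0.000629. Tap1 rose 2.29-fold, 2.07-fold and 2.18-fold (adjusted p = 0.000729, 0.00139 and 0.00101), and its second probe gave 1.18 in Ctrl-F and 1.07 in ODNcap-F on the log2 scale.

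**Figure D3:**
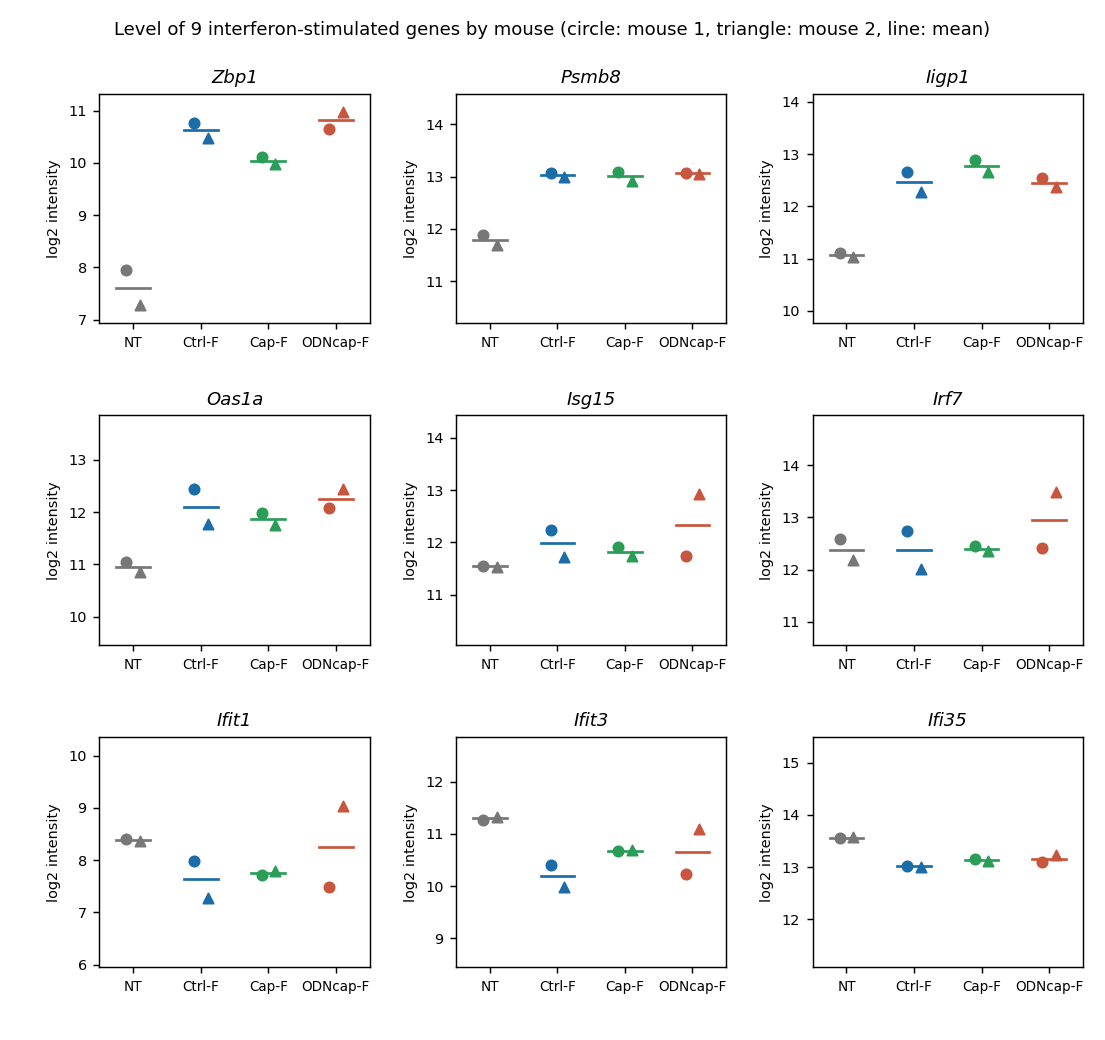
Normalized log2 intensity of 9 genes in each mouse, with circles for mouse 1, triangles for mouse 2 and a line at the group mean, on axes that each span 4.4 log2 units. In Zbp1, Psmb8, Iigp1 and Ifi35 all 6 allergen mice lie apart from NT, whereas in Isg15, Irf7 and Ifit1 the triangle of ODNcap-F lies apart from its circle.

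The feeds were then compared among allergen-challenged mice, which asks whether oral particles with CpG oligodeoxynucleotide changed the module. No gene of the 46 passed in ODNcap-F against Ctrl-F, ODNcap-F against Cap-F or Cap-F against Ctrl-F by limma, against 0% of named genes in each, and the smallest adjusted p was 0.759, 0.307 and 0.314. At an unadjusted p below 0.05 the counts were 0, 4 and 0 of 46, beside 5.8%, 11.7% and 15.3% of named genes. By the local-pooled-error test the counts were 0, 1 and 1, beside 0.76%, 0.772% and 1.3% of named genes. The precision was limited, with a median half-width of the 95% interval of 0.37 log2 units, from 0.16 for Trim25 to 1.57 for Oas3.

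The 4 genes with an unadjusted p below 0.05 in ODNcap-F against Cap-F were Zbp1, Samhd1, Gbp7 and Lgals3bp. Zbp1 differed by 0.77 (95% interval 0.18 to 1.36, adjusted p = 0.307), and both ODNcap-F mice lay above both Cap-F mice. The local-pooled-error test called Zbp1 in both contrasts with Cap-F, against ODNcap-F (adjusted p = 0.00376) and against Ctrl-F (-0.58, adjusted p = 0.0456). Against Ctrl-F, Zbp1 in ODNcap-F differed by 0.19 (95% interval -0.39 to 0.78), and the mice overlapped. Samhd1, at 13.24 and 13.30 with NT, 13.51 and 13.33 with Ctrl-F, 13.60 and 13.57 with Cap-F, then 13.34 and 13.32 with ODNcap-F, differed by -0.25 by its brightest probe (95% interval -0.45 to -0.05). Gbp7 differed by -0.20 and Lgals3bp by 0.32. In Cap-F against Ctrl-F, Irf1 differed by 0.16 (95% interval -0.02 to 0.33, adjusted p = 0.348).

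In ODNcap-F against Ctrl-F, 38 of 46 genes had a positive difference, with a median of 0.12 beside 2.66e-05 for all named genes. That median was -0.0086 without ODNcap-F mouse 2 and -0.013 without Ctrl-F mouse 2. In ODNcap-F against Cap-F the median was 0.084, and -0.031 without ODNcap-F mouse 2. Between Cap-F and Ctrl-F it was 0.042, with -0.13 without Ctrl-F mouse 2 and 0.18 without Ctrl-F mouse 1. The mice of ODNcap-F lay above both mice of Ctrl-F in 2 genes (4.35%) and below them in 0, beside 18.7% and 17% of named genes. ODNcap-F lay above Cap-F in 8 genes (17.4%) and below in 5 (10.9%), beside 23.2% and 22% of named genes. Cap-F lay above Ctrl-F in 10 genes (21.7%) and below in 3 (6.52%), beside 25% and 27.3% of named genes.

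Mice of the same group differed widely in part of the module, and the gap of 0.5 used here was chosen with the values known. ODNcap-F mouse 2 held the highest value of the 8 mice in 21 of 46 genes (45.7%), beside 8.72% of named genes. The lowest value was that of Ctrl-F mouse 2 in 18 genes (39.1%), beside 11.8% of named genes, and that of NT mouse 2 in 20 genes (43.5%), beside 19.3%. ODNcap-F mouse 2 exceeded mouse 1 by over 0.5 on the log2 scale in 14 genes (30.4%), beside 3.56% of named genes. Ctrl-F mouse 1 exceeded mouse 2 by over 0.5 in 15 genes (32.6%), beside 2.91%. In no gene was a gap of that size turned the other way in these groups. In NT 2 genes (4.35%) and in Cap-F 1 gene (2.17%) had a gap above 0.5 with mouse 1 the higher, beside 2.46% and 2.05% of named genes. With mouse 2 the higher it was 0 genes in both groups, beside 2.12% and 5.12% of named genes.

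Of these genes, 13 were shared, which is 86.7% of those in Ctrl-F and 92.9% of those in ODNcap-F. They were Cmpk2, Dhx58, Ifi44, Ifit1, Irf7, Isg15, Oas2, Oas3, Oasl1, Oasl2, Rsad2, Rtp4 and Usp18. Ifit2 and Oas1a were in the Ctrl-F list alone and Ifit3 in the ODNcap-F list alone. The widest gap in ODNcap-F was that of Ifit1, 1.54, followed by Oas2 with 1.20, Oasl1 with 1.19 and Isg15 with 1.19. The widest in Ctrl-F was that of Oas3, 1.92, but Oas3 was not above background in Ctrl-F mouse 2. Among genes measured on all arrays, Ifi44 had the widest gap in Ctrl-F, 1.15. The gaps have no test, because each rests on 1 mouse against 1 mouse.

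**Figure D4:**
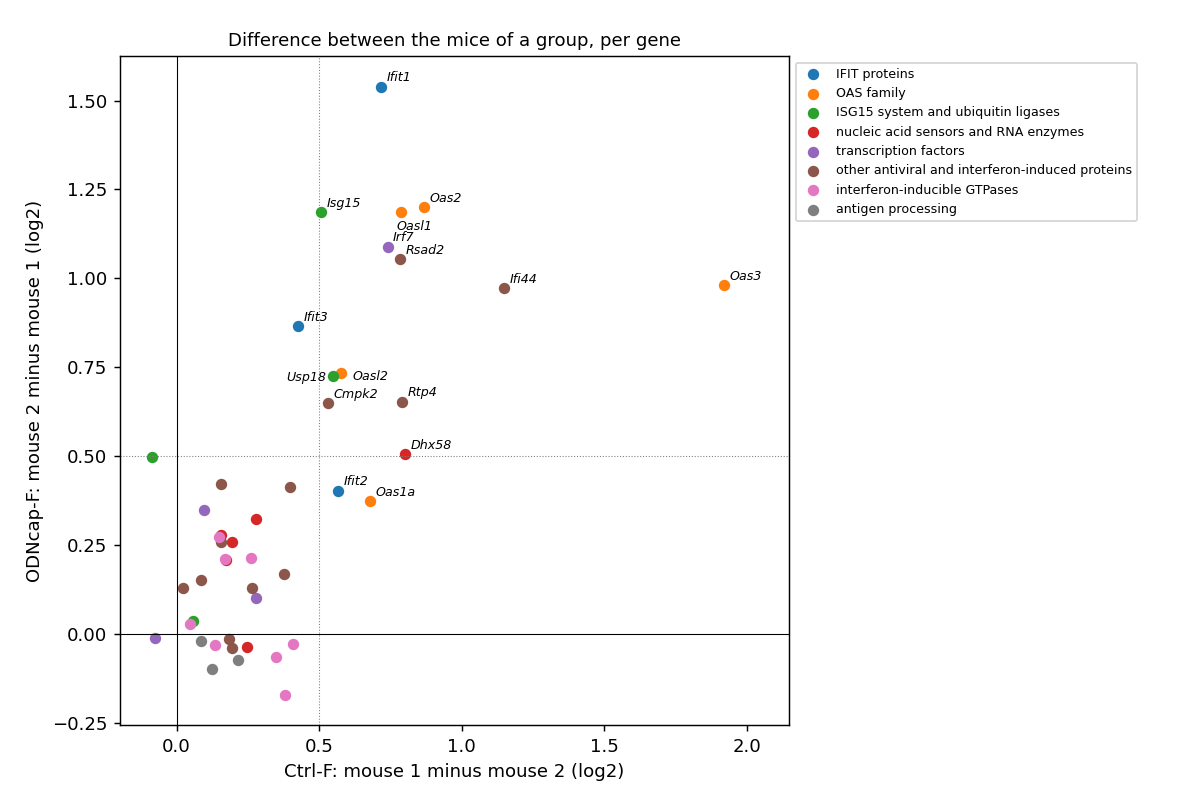
Difference between the mice of a group for each of the 46 genes, with Ctrl-F mouse 1 minus mouse 2 on the horizontal axis and ODNcap-F mouse 2 minus mouse 1 on the vertical axis, in log2 units and colored by role. Dotted lines stand at 0.5, and 13 genes of the OAS, IFIT, ISG15 and related sets lie beyond both, whereas all GTPase and antigen-processing genes lie inside both.

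The gaps were unevenly spread over the roles. Of the OAS genes, 5 of 5 had the gap in Ctrl-F and 4 of 5 in ODNcap-F. The median difference in ODNcap-F (mouse 2 minus mouse 1) was 0.98 for the OAS genes and 0.86 for the IFIT genes. For the GTPases it was -0.00043 and for the antigen-processing genes -0.074, and no gene of either set had a gap above 0.5 in Ctrl-F or ODNcap-F. The same median in Ctrl-F was -0.79 for the OAS, -0.57 for the IFIT and -0.22 for the GTPase genes. For the antigen-processing genes it was -0.13. All 8 GTPases and all 3 antigen-processing genes were higher in Ctrl-F mouse 1. The sensors and RNA enzymes (-0.22) and the transcription factors (-0.19) lay near the GTPases there. The median over the module was 0.27 in ODNcap-F and -0.27 in Ctrl-F, beside -0.0069 and 0.0038 for all named genes. Under 75th percentile scaling 14 and 15 genes had the gap in Ctrl-F and ODNcap-F, beside 3.28% and 4.01% of named genes. With normexp background correction 10 and 12 genes had it, beside 0.615% and 1.01% of named genes. With the log2 values the authors deposited it was 14 and 13 of 45, beside a rounded 2% of named genes in each group.

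Some marker lists differed between the same mice. In ODNcap-F, mouse 2 minus mouse 1 had a median of -0.71 for 4 neutrophil markers, -0.42 for 5 eosinophil markers, -0.32 for 5 T cell markers, -0.12 for 6 plasmacytoid dendritic cell markers and 0.67 for 5 cardiomyocyte markers. In Ctrl-F it was -0.093, -0.022, -0.051, -0.084 and 0.59 for the same lists, with -0.42 for 4 B cell markers and -0.19 for 5 NK cell markers. In ODNcap-F the B cell and NK cell medians were -0.073 and -0.25. The 5 endothelial markers were all higher in Ctrl-F mouse 2, with a median of 0.26. The part of these differences in the gaps was not tested.

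The pathway above the module was read from lists of its ligands, receptors, sensors and regulators. The counts that follow stand beside 28.1% higher and 36.9% lower of all named genes in Ctrl-F, 26% and 34.6% in Cap-F, and 27.2% and 35% in ODNcap-F. Of the interferon genes, 5 of 10 listed were tested, and Ifng, the interferon of T and NK cells, rose in each group. Its log2 levels were 6.47 and 6.18 with NT, 7.37 and 7.32 with Ctrl-F, 7.84 and 7.59 with Cap-F, then 7.57 and 7.59 with ODNcap-F, with differences of 1.02 ± 0.13 with Ctrl-F, 1.39 ± 0.13 with Cap-F and 1.26 ± 0.13 with ODNcap-F (SE), at adjusted p values of 0.000965, 0.000368 and 0.000494. The quantitative PCR of the paper, in more mice, had lung Ifng raised in Ctrl-F and Cap-F but near baseline in ODNcap-F, unlike these arrays. The type I genes Ifna1 and Ifnab did not pass, with differences of 0.11, 0.24 and 0.20 and 0.30, 0.06 and -0.02. Ifnk, a type I interferon of epithelium, fell in Ctrl-F and ODNcap-F (-0.65 and -0.61, adjusted p = 0.00939 and 0.0126).

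Of 6 receptor genes, 2 rose and 3 fell in both Ctrl-F and Cap-F, and 1 rose and 3 fell in ODNcap-F, or 83.3%, 83.3% and 66.7% of the list. The interferon-gamma receptor chains parted, with Ifngr2 at 1.19, 1.21 and 1.17 (adjusted p = 7.91e-05, 8.81e-05 and 9.69e-05) and Ifngr1 at -0.54, -0.48 and -0.52 (adjusted p = 0.0012, 0.00226 and 0.0015). The type I receptor chain Ifnar1 was at -0.27, -0.25 and -0.23 and the type III chain Ifnlr1 at -0.93, -0.75 and -0.86, both lower in each group (adjusted p at most 0.0227 and 0.000706). Jak2, a kinase of the interferon-gamma receptor, rose by 1.05, 1.04 and 0.94 (adjusted p = 0.000302, 0.000377 and 0.000512).

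Of 15 genes that sense nucleic acids upstream of interferon, 10 rose and 1 fell in Ctrl-F, 8 rose and 2 fell in Cap-F, and 8 rose and 2 fell in ODNcap-F, or 73.3%, 66.7% and 66.7% of the list. Tlr9, the receptor of CpG DNA, had differences of -0.06, -0.19 and -0.08, and no difference against NT passed (adjusted p = 0.55, 0.075 and 0.413). Sting1, the adaptor of cytosolic DNA sensing, rose by 2.02, 2.10 and 1.97, and Unc93b1, which carries nucleic acid receptors to endosomes, by 1.26, 1.49 and 1.26. Of 5 negative regulators 4 rose and 1 fell in each comparison. Socs1, which blocks JAK kinases, rose by 2.56, 2.55 and 2.48 (adjusted p = 1.6e-05, 1.84e-05 and 1.88e-05).

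Among 5 chemokine and checkpoint genes known for their response to interferon-gamma, 4 rose in each comparison. The other, Ccl5, fell in Ctrl-F and ODNcap-F (-0.59 and -0.52, adjusted p = 0.017 and 0.0289) and gave -0.38 in Cap-F (adjusted p = 0.0825). Cxcl9, a chemokine for T cells, was at 3.29 and 4.05 with NT, 9.49 and 9.28 with Ctrl-F, 9.45 and 9.01 with Cap-F, then 9.58 and 9.12 with ODNcap-F, and Cxcl10 at 7.60 and 8.11 with NT, 10.75 and 10.15 with Ctrl-F, 10.96 and 10.73 with Cap-F, then 10.52 and 11.07 with ODNcap-F. Cxcl9 was well above background on 7 of the 8 arrays. Cxcl10 rose by 2.60, 2.99 and 2.94 (adjusted p = 0.000649, 0.00046 and 0.000459). Between mice of a group (mouse 2 minus mouse 1), the 5 chemokine and checkpoint genes had a median of -0.42 in ODNcap-F and -0.21 in Ctrl-F. Mouse 2 was the higher in 1 and 0 of them. Of 9 further MHC class I genes 4 rose in both Ctrl-F and Cap-F and 5 in ODNcap-F, and none fell. Of 34 further interferon-induced genes 12 rose and 11 fell in Ctrl-F, 13 rose and 9 fell in Cap-F, and 12 rose and 9 fell in ODNcap-F, or 67.6%, 64.7% and 61.8% of the list, near the 65%, 60.6% and 62.2% of all named genes. In that list Ctrl-F mouse 1 exceeded mouse 2 by over 0.5 in 5 genes (14.7%), and ODNcap-F mouse 2 exceeded mouse 1 in 2 (5.88%), beside 2.91% and 3.56% of named genes. No gene of these lists passed between feeds.

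Replicates were 2 mice per group, so an exact permutation test of any single gene cannot go below p = 0.333. The arrays of NT and Ctrl-F lay in a different row of the slide from those of Cap-F and ODNcap-F, and row and group cannot be told apart across rows.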

How the data were processed

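Lung RNA of 8 mice was hybridized by the authors to Agilent single-color arrays (Cy3), 1 array a mouse. The spot intensity values were extracted by the authors with Agilent Feature Extraction 11.0 as processed signals, already background-subtracted. A log2 table deposited by the authors (32312 probes), which they had quantile normalized after a filter not described in the sources used here, served as an alternative. Here the intensities were put on the log2 scale, 792 flagged spot values were left out, spots of a probe were averaged and arrays were quantile normalized. A probe was kept (37116 of 56605) where the scanner software placed it well above background in both mice of at least 1 group. The groups were compared in a single linear model over the 8 arrays without covariates, using limma 3.58.1 in R 4.3.3 with Benjamini-Hochberg adjustment over all kept probes. A gene was read from its brightest probe, named through RefSeq accessions (58.3% of probes named).

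A local-pooled-error test, 75th percentile scaling, normexp correction (offset 50), no filter, the mean of a gene's probes, the deposited log2 values, a filter on all arrays, an intensity trend, a fit of only the groups compared, a replicate block and leaving out each mouse were alternatives. Any member could be named, and all 8 mice were to be given for the 2 members of each role with the smallest p against NT, the 5 with the smallest p between feeds and the 5 with the widest gap between mice. The mouse values of Irf7, Ifng, Cxcl9 and Cxcl10 were added after they were seen. The members and lists were chosen with earlier results of these data known. Depth does not apply to arrays, and their number limits the precision. Each array held 1 lung RNA, so the spread behind the p-values is that between mice. In the limma fit the spread of a probe was pooled over all groups and moderated toward that of other probes. The local-pooled-error test took it from probes of like intensity.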

Additional observations from a re-analysis of the deposited data

How the results depend on the processing

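Against NT, the counts of genes that passed stayed within 1.5 times of 21 under other scalings, filters and tests, and fell to 6 with Ctrl-F, 5 with Cap-F and 5 with ODNcap-F when a fold change over 2 was also required. Leaving out a mouse gave 13 to 23 genes for Ctrl-F, 10 to 22 for Cap-F and 12 to 23 for ODNcap-F. Between feeds the count stayed at 0 by limma, and the local-pooled-error test gave 1 for ODNcap-F against Cap-F and 1 for Cap-F against Ctrl-F. The median of the module ranged, with a mouse left out, from -0.067 to 0.239 (Ctrl-F against NT), 0.022 to 0.207 (Cap-F against NT), 0.045 to 0.520 (ODNcap-F against NT), -0.013 to 0.233 (ODNcap-F against Ctrl-F), -0.031 to 0.227 (ODNcap-F against Cap-F) and -0.126 to 0.182 (Cap-F against Ctrl-F). With a replicate block 19, 22 and 19 genes passed against NT and 0 between feeds. The mice share only a number, and the correlations of their deviations ran from -0.012 to 0.161. Signs turned for Trim25 with the mean of its probes (0.28, 0.21 and 0.21 in the order above), for Irf9 in ODNcap-F against NT with 75th percentile scaling (0.0026) and between mice left out (-0.16 to 0.013), and for Oasl2 there between mice left out (-0.56 to 0.17). Of 742 single-gene alternatives, 682 kept direction and side of the threshold, 42 lost the call, 12 gained it and 6 turned. The cause was not tested.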
